A study of Mus musculus with 19 samples.

Results

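Custom noncoding transcripts with their highest level in erythroblasts are described here. The array carried 1317 transcripts, named TCONS with a number, which the study had found by RNA sequencing of blood-forming cells and added to a catalogue mouse array; of those chosen here, 533 had 3 probes. A transcript was taken when the highest of its 7 cell type means was that of early or of late erythroblasts and when at least 1 of its probes was flagged by the scanner software as well above background on each array of that type. This gave 535 of the 1317 (40.6%), 353 highest in late and 182 highest in early erythroblasts. A further 306 had their highest mean in erythroblasts but did not pass the background condition and were left out. Because the levels themselves chose the transcripts, their height in erythroblasts against the other cells is described below without a test. Their sequences and genome positions were not used here.

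The samples were sorted bone marrow cells of adult C57BL/6 mice aged 8 to 12 weeks, with no treatment or mutation named, and 1 array per sample. LSK cells (lineage-negative, Kit-positive, Sca1-positive; stem and multipotent progenitors), common myeloid progenitors (CMP; CD34 high, CD16/32 low) and megakaryocyte-erythroid progenitors (MEP; both low) had 3 arrays each, and granulocyte-macrophage progenitors (GMP; both high) had 2. Early erythroblasts (Ter119-positive, large, CD44 high) had 2 arrays, and late erythroblasts (Ter119-positive, small, CD44 intermediate) and Gr1-positive granulocytes had 3 each. Nothing in the labels ties a sample to an animal, so p-values measure only how far these samples differ from each other, and that spread may be technical.

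Long noncoding RNAs are transcripts without a protein product. Some act in the nucleus on chromatin or on neighbouring genes, others are by-products of transcription at enhancers or promoters, and many are made in only a few cell types. Erythroblasts are red cell precursors that fill with hemoglobin, condense their nucleus and shut down most transcription as they mature, so that the RNA of a late erythroblast is dominated by a small number of abundant messages.

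All levels are log2 of the processed signal minus the 75th percentile of the array, averaged over the probes of a transcript, so 0 is a fairly bright spot and 1 unit is a doubling. That percentile was 50.1 to 81.32 intensity units on the 5 erythroblast arrays and 265.6 to 606.5 on the other 14, and the lowest signal well above background lay between -2.81 and -2.54 on erythroblast arrays and between -5.56 and -3.79 elsewhere. The levels are therefore relative to a fairly bright spot of the same array. They are neither amounts per cell nor shares of a sample's RNA. Fewer transcripts per cell cannot be told apart from a smaller share of cells that hold them. The marker check went with the labels: all 10 erythroblast markers, such as the hemoglobin genes Hba-a1 and Hbb-bt and the heme enzyme gene Alas2, were highest in an erythroblast type. Some markers of other cells were also seen in the erythroblast sorts. Highest in an erythroblast type were also 1 of 4 B cell markers (Cd79a) and 1 of 4 T and NK cell markers (Cd3e). The same held for 1 of 5 megakaryocyte and platelet markers (Gp9). Of 6 granulocyte markers, 6 were above background on every array of either stage. Their summed levels were 7.06 to 8.86 in early and 9.34 to 9.38 in late erythroblasts against 12.05 to 12.17 in granulocytes. That sum was 9.04 to 9.32 on LSK, 8.96 to 9.75 on CMP, 7.96 to 8.66 on MEP and 11.01 to 11.02 on GMP arrays. Of 7 macrophage markers, 5 were above background on every array of either stage (summed levels 2.22 to 2.29 and 3.01 to 3.26), and of 5 stem cell markers 0 in early and 1 in late erythroblasts. The granulocyte arrays in turn held erythroblast markers, with a summed level of 9.19 to 9.29 against 3.54 to 7.26 on LSK and progenitor arrays.

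The transcripts stood higher in erythroblasts by widely different amounts. The margin, which is the highest erythroblast mean minus the highest of the other 5 means, ran from 0.004 to 10.56 with a median of 1.90, and the middle 50% of transcripts lay between 1.04 and 3.03. Margins use the measured signal also where it is below background. With the detection limit put in place of cell types above background on none of their arrays, 80 margins became smaller bounds, the median was 1.79 and the highest 9.26. For 125 transcripts the measured margin was at most 1, for 155 it lay between 1 and 2, for 173 between 2 and 4, and for 82 above 4, of which 65 stayed above 4 with the detection limit. All 5 erythroblast arrays were above all 14 others for 386 of the 535. Over all features tested this held for 28.9%, over the custom transcripts tested for 37.5%, over the catalogue's intergenic noncoding regions for 60.8% and over named genes for 21.2%. The rule itself took 40.8% of all features, 49.2% of the custom transcripts, 64.4% of the catalogue's intergenic noncoding regions and 34.5% of named genes above background in some cell type. Since the rule used these values, nothing is read from those shares. The spread between arrays of 1 cell type was small beside most margins, with a median SD over the transcripts of 0.16 to 0.25 in the 7 cell types.

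**Figure D1:**
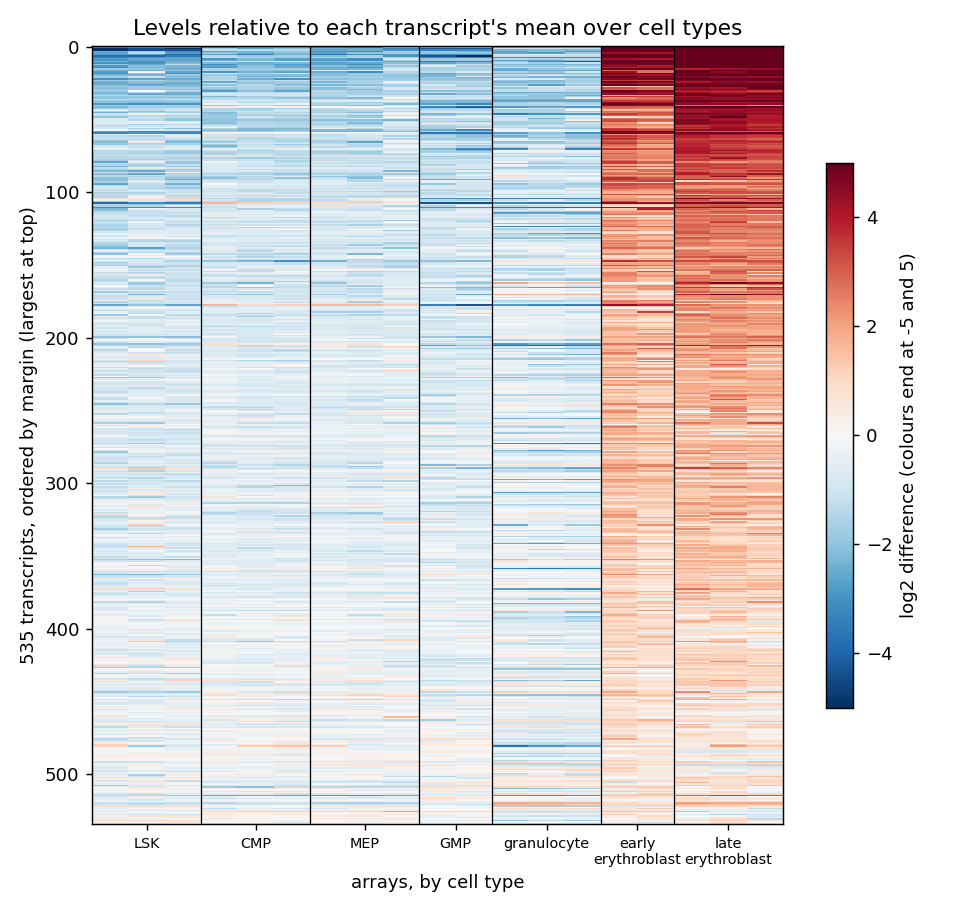
Each row is 1 of the 535 transcripts and each column 1 of the 19 arrays; colour gives the log2 level minus the mean of the transcript's 7 cell type means, and colours end at -5 and 5. Rows run from the largest margin (10.56, top) to the smallest (0.004, bottom), and the 5 erythroblast columns at the right lose their contrast with the other 14 on the way down.

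At the threshold the choice was fine. Just inside it, TCONS_00426718 had -2.847 in late erythroblasts and -2.851 in granulocytes, TCONS_00105601 had 1.05 in late erythroblasts and 1.03 in LSK cells, and TCONS_00119695 had -1.31 and -1.32 in the same pair. Just outside it, TCONS_00018126 had 6.359 in its higher erythroblast type and 6.368 in GMP, TCONS_00472573 had 1.36 against 1.38 in granulocytes, and TCONS_00251773 had -3.66 against -3.61 in MEP. These differences are smaller than the spread between arrays.

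The number of transcripts chosen rested on how the arrays were scaled. With each array centred on 6 spike-in probes in place of its percentile, only 88 of the 535 (16.4%) were still highest in erythroblasts, and the median margin over all 535 was -1.73. With that scaling 4.34% of all features and 8.09% of the custom transcripts met the rule. The 88 came from the high end of the margins: 78 of the 82 with a margin above 4 and 10 of the 173 between 2 and 4, and 0 of those below. Of the 88, 87 met the rule under every scaling tried. The labels do not say how much RNA was put on each array.

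The probes of a transcript mostly agreed. For 486 of the 535 every probe on its own was highest in erythroblasts, and the others had at least 1 such probe. For 355 every probe was also well above background on every array of its highest type, while 92 transcripts rested on 1 such probe and 18 had no single probe that met both conditions. No spot of these transcripts was saturated.

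Several transcripts with the largest margins were not above background outside the erythroblast sorts. TCONS_00126458 stood at 2.55 and 2.65 on the early erythroblast arrays, at 4.12, 4.5 and 4.39 on the late ones, and between -7.77 and -5.90 (median -6.76) on the 14 others. None of those 14 was above background, so its level in late erythroblasts was at least 325-fold that of any of those 5 cell types, taking the detection limit in their place. Between the stages it was higher in late erythroblasts by 1.74 ± 0.35 (SE, limma adjusted p = 0.000849). Its choice as highest in late erythroblasts fixed that sign, so this is a description only. TCONS_00452153 had 1.75 and 1.54 on early, 3.55, 3.5 and 3.46 on late erythroblast arrays and -7.44 to -5.85 elsewhere, at least 182-fold lower. The arrays of the groups did not overlap for either transcript, nor for any of the 10 with the largest margin.

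Other transcripts among these 10 could be measured in other cell types, at far lower levels. TCONS_00336294 had 5.14 and 5.07 in early and 6.43, 6.49 and 6.42 in late erythroblasts, was above background on 8 of the 14 other arrays, and was highest there in granulocytes, 611-fold below late erythroblasts. TCONS_00108378 had 5.23 and 5.57 in early and 7.02, 7.01 and 7.30 in late erythroblasts. On the 14 other arrays, all above background, it lay between -5.73 and -2.01, and its late erythroblast mean was 608-fold that of CMP, the highest of the 5 types other than erythroblasts. These were the largest margins once the detection limit is used, 9.26 and 9.25 against at least 8.35 for TCONS_00126458. With spike-ins their measured margins were 5.23 and 4.86, against 6.25 for TCONS_00126458. TCONS_00108378 was measured on either side of the contrast on every array, with no overlap between the groups.

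TCONS_00236091 differed from the other 9 in being highest in early erythroblasts, at 7.29 and 6.84 against 6.79, 6.39 and 6.27 in late ones, a difference that was not called (late minus early -0.59 ± 0.33, limma adjusted p = 0.178). It was above background on 12 of the 14 other arrays, where it reached -1.14, and its early erythroblast mean was 309-fold that of granulocytes. The remaining 5 (TCONS_00018393, TCONS_00224333, TCONS_00088551, TCONS_00233153 and TCONS_00367307) were highest in late erythroblasts, with means there of 2.08 to 4.58 and in early erythroblasts of -0.25 to 2.87. TCONS_00088551 was 333-fold higher in late erythroblasts than in granulocytes, and the other 4 were at least 68.0- to 246-fold above each of the 5 types other than erythroblasts. By measured signal all 10 were also highest in erythroblasts with spike-in scaling, by margins of 3.74 to 6.25.

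**Figure D2:**
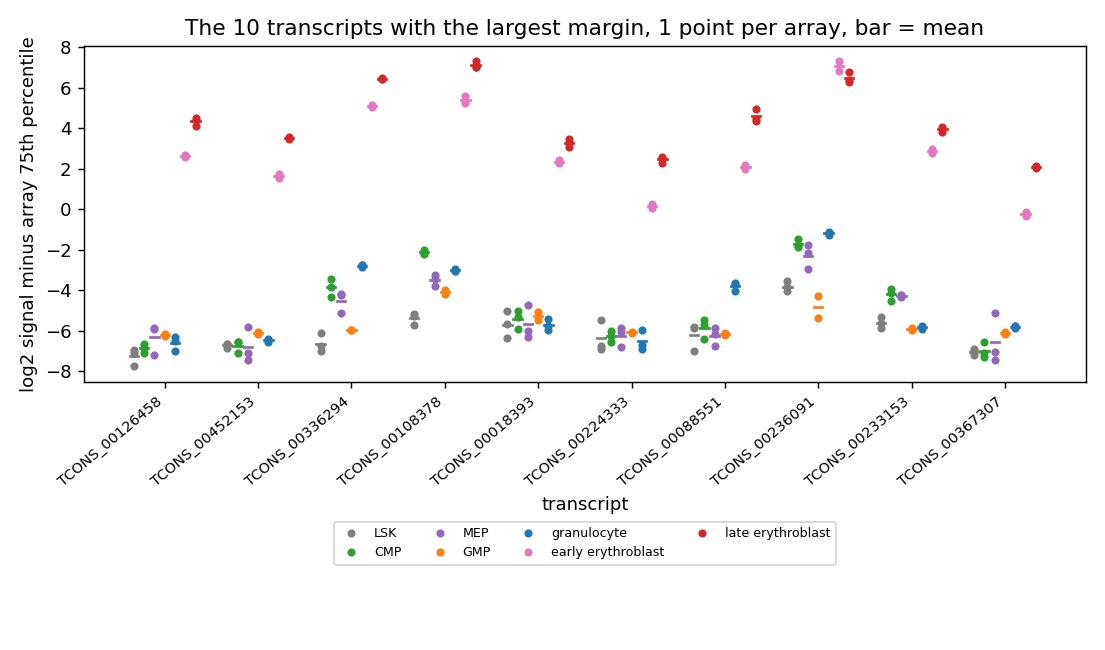
The vertical axis is the log2 signal minus the array's 75th percentile; each point is 1 array, each short bar a cell type mean, and colours give the 7 cell types. For each of the 10 transcripts the 5 erythroblast arrays lie above the 14 others, and in TCONS_00236091 alone the early erythroblast mean (7.07) is above the late one (6.48).

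Detection outside erythroblasts separated the 535 further. On every one of the 14 other arrays, 356 were above background, 165 on some, and 14 on none. Among those 14 transcripts, 3 are named above. For the other 11 the higher erythroblast mean was at least 3.39- to 55.0-fold above the detection limit of the other types. These minimum folds belong to the scaling used for the levels. TCONS_00108375 had 1.82 and 1.70 in early and 1.72, 1.66 and 1.93 in late erythroblasts, level between the stages. TCONS_00001758 had 0.70 and 0.71 in early and -0.55, -0.22 and -0.04 in late erythroblasts, so that it was higher in the early stage on every array. TCONS_00086218 was above background in late erythroblasts alone, at -1.18, -0.24 and -1.67, with 0 of 2 early arrays above background. By measured signal all 14 were highest in erythroblasts with spike-in scaling too, by margins of 0.58 to 6.25. For each of the 11 this margin was smaller than the log2 of its minimum fold, such as 0.58 against 1.76 for TCONS_00420853. The other types are below background, and no detection limit was put in their place with that scaling. Whether the smaller of these margins would hold against it was not tested. Of the 465 transcripts whose highest type other than erythroblasts was above background on all its arrays, that type was granulocytes for 179 (38.5%), GMP for 82, CMP for 79, MEP for 72 and LSK for 53. Among the 24626 features tested whose highest of these 5 types was above background on all its arrays, that type was granulocytes for 31.5% and GMP for 27.1%.

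Late and early erythroblasts were compared to ask how the transcripts differ between stages of red cell maturation. Both stage means entered the rule, which fixes the sign of each transcript's difference by its highest type and requires the higher stage to be above background, as a call does. The counts and p-values of this comparison are therefore a description of the chosen transcripts, and nothing is read from them against all features. Of the 535 transcripts, 176 (32.9%) were higher in late and 83 (15.5%) higher in early erythroblasts by limma at an adjusted p of 0.05 (3 against 2 arrays). The median difference was 0.34 (late minus early, log2). Over all 26271 features tested, 13.6% were higher and 25.8% lower in late erythroblasts, with a median of 0.05. Named genes that met the same rule (5185) were higher in late erythroblasts for 19.7% and lower for 37.1%, and catalogue intergenic noncoding regions (2217) for 14% and 7.98%; the difference between these classes was not tested. Among the 464 transcripts above background on every array of both stages, 163 were higher and 64 lower in the late stage. All probes gave the sign of the call for 251 of the 259 transcripts called.

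The scaling moved this balance as a whole. With spike-in scaling the median of all features fell to -0.88, the median of the transcripts was -0.59, and 13 were higher and 107 lower in late erythroblasts. With the percentile over probes detected on all arrays, the medians were 0.42 and 0.72, with 283 higher and 49 lower. Both scalings move all features of an array by the same amount, so they cannot change the distance of the transcripts from the median of all features, which was 0.29. That distance was 0.45 with quantile normalization and 0.05 after normexp background correction. On the slides that held both stages, slides 1 and 3, the median difference was 0.24 and 0.40, and the sign was that of the call for 258 and for 259 of the 259 transcripts called. The calls come from these same arrays, so that sign is no separate evidence. All 6 granulocyte markers were also higher in late than in early erythroblasts (median difference 1.43), as were the macrophage genes C1qb and Csf1r of 6 tested. The early arrays differed in the granulocyte markers, with summed levels of 7.06 and 8.86 against 9.34 to 9.38 on late arrays. Of the 176 transcripts higher in late erythroblasts, 57 (32.4%) were also higher in granulocytes than in GMP, beside 21.3% of all 535 and 22.2% of all features tested. The part of other cells in these differences was not tested.

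A pair of transcripts was not above background in early erythroblasts and clearly so in late ones, so that only a lower bound of the rise can be given. TCONS_00482715 was at -4.07 and -3.72 on early arrays, not above background, and at 0.45, 1.52 and 1.02 on late ones, at least 13.6-fold higher (limma adjusted p = 4.53e-06). TCONS_00482714 had -3.73 and -3.69 on early and 0.44, 1.48 and 0.95 on late arrays, at least 13.2-fold higher. After normexp the differences were 1.64 and 1.48. Outside erythroblasts both were highest in granulocytes, at -2.04 to -1.41. With spike-in scaling neither was highest in erythroblasts, with margins of -1.35 and -1.29. Each had 2 probes. Whether the pair comes from a single locus was not analysed here.

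Other rises were measured in both stages. TCONS_00152926, with the largest of these, went from 1.33 and 1.56 to 5.65, 5.17 and 5.27, a rise of 3.92 ± 0.20 or 15.1-fold (adjusted p = 8.97e-09), and lay between -2.06 and -0.55 on the 14 other arrays. TCONS_00251037 went from -0.75 and -0.78 to 2.59, 2.21 and 2.11 (3.07 ± 0.21, adjusted p = 1.23e-07), and TCONS_00174685 from 0.11 and 0.36 to 3.13, 3.28 and 2.80 (2.84 ± 0.27, adjusted p = 1.3e-06). In each of them all late arrays were above all early arrays, and each kept its direction under the 4 other scalings. TCONS_00086218, the transcript found in late erythroblasts alone, was at least 3.35-fold higher there than in early ones (adjusted p = 1.65e-05).

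In the other direction, the 6 largest calls were of 1.82 to 2.25 in size with the 75th percentile and of 2.75 to 3.18 with spike-ins. With spike-ins only TCONS_00234362 of the 6 was still highest in erythroblasts, by 2.44, and the others had margins of -3.15 to -0.63. With the 75th percentile the margins of TCONS_00131445, TCONS_00402277 and TCONS_00457159 were 0.35, 0.84 and 0.23. TCONS_00209541 was above background on all 19 arrays and fell from 5.08 and 5.33 in early to 3.08, 3.28 and 3.36 in late erythroblasts, by 1.96 ± 0.145 (adjusted p = 2.28e-07), and on the 14 other arrays it lay between 1.48 and 2.61. TCONS_00234362, which was above background on none of the 14 other arrays, fell from -0.76 and -0.83 to -2.44, -2.46 and -2.98 (1.83 ± 0.35, adjusted p = 0.000646), with 2 of 3 late arrays above background. TCONS_00457159 fell from 1.40 and 1.27 to -0.42, -0.85 and -0.16 (1.82 ± 0.175), and its granulocyte values of 1.04 to 1.14 came close to those of early erythroblasts. TCONS_00131445, TCONS_00402275 and TCONS_00402277 were above background on 0 of 3 late arrays and at least 1.41-, 1.1- and 2.66-fold lower there. All 6 kept their direction under the 4 other scalings, but most were far smaller after normexp. There late minus early was -0.091 for TCONS_00402275, -0.113 for TCONS_00131445, -0.278 for TCONS_00402277 and -0.305 for TCONS_00234362. It was -0.97 for TCONS_00457159 and -2.06 for TCONS_00209541.

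Transcripts with a large margin were mostly of the late kind. Of the 82 with a margin above 4, 52 were higher in late and 4 in early erythroblasts, against 19 and 33 of the 125 with a margin of at most 1. Both measures contain the late erythroblast mean, so no test was made of this. The brightest of the 535 by late erythroblast level, TCONS_00195943, chosen after its values were seen, shows how the spread limits a call: it had 8.73 and 7.05 in early and 11.93, 8.85 and 9.30 in late erythroblasts, ranges that nearly meet, and its difference of 2.14 was not called. Its LSK arrays also spread from 1.66 to 4.60.

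**Figure D3:**
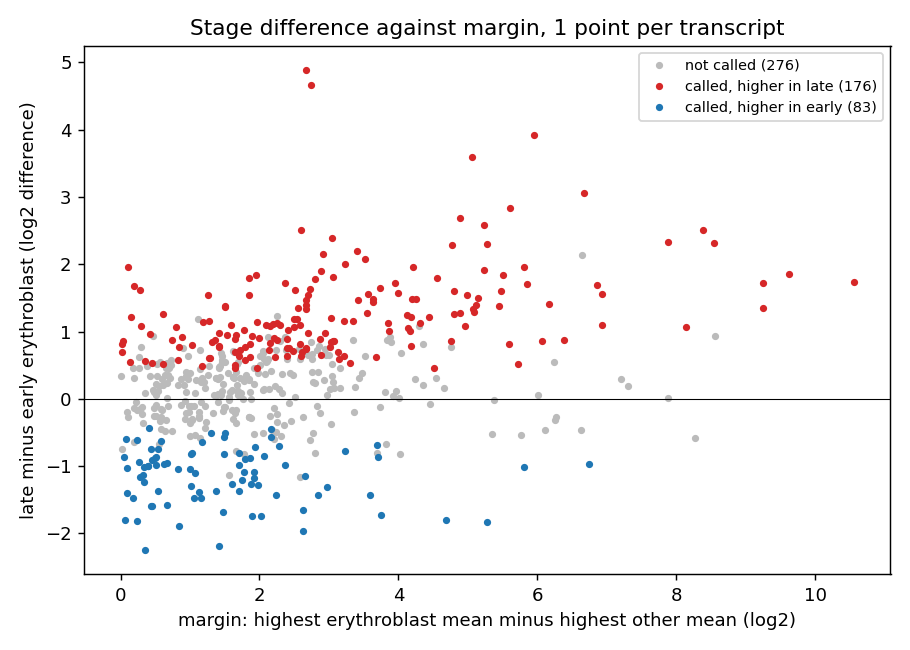
Each point is 1 of the 535 transcripts; the horizontal axis is the margin and the vertical axis late minus early erythroblast, both in log2 units. The 176 transcripts called higher in late erythroblasts extend over all margins, and the 83 called higher in early ones lie mostly at small margins.

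The custom probes carry 4 set codes, numbered 1 to 4 here. According to the study design, the added probes cover pseudogenes, long noncoding RNAs at a high and a low stringency, and genes overlapping small RNAs, but the sources used here do not tie a code to a category. The rule took 57 of 155 transcripts of set 1, 30 of 60 of set 2, 157 of 378 of set 3 and 291 of 724 of set 4. Set 1 leaned to the early stage, with 9 transcripts higher in late and 28 higher in early erythroblasts and a median difference of -0.36. Sets 2, 3 and 4 leaned to the late stage, with 9, 50 and 108 higher in late and 1, 22 and 32 higher in early erythroblasts and medians of 0.10, 0.31 and 0.46. The order of the 4 medians was the same with quantile normalization and after normexp; the percentile over detected probes and the spike-ins move all transcripts alike and cannot change it. The medians of sets 1 and 4 were 0.01 and 0.83 with the percentile over detected probes, -1.29 and -0.47 with spike-ins, -0.29 and 0.55 with quantile normalization and -0.07 and 0.22 after normexp. The difference between sets was not tested.

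**Figure D4:**
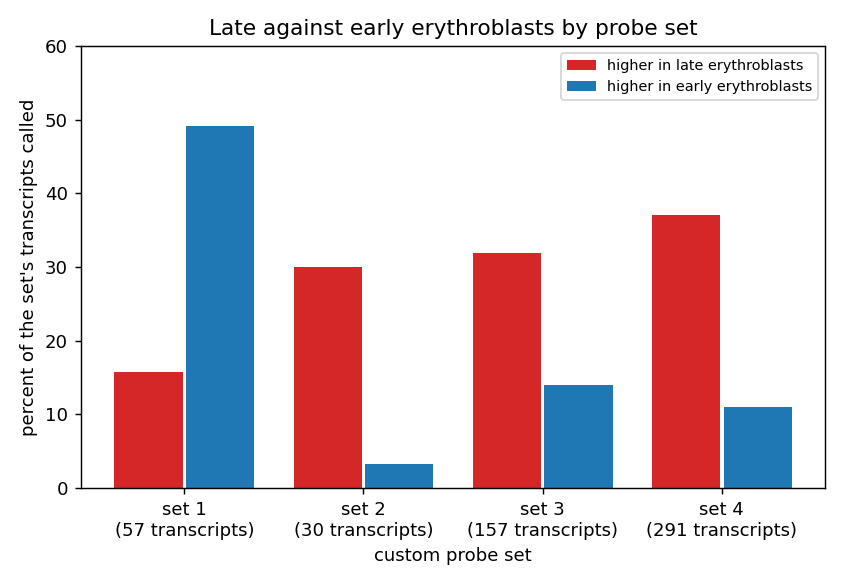
Bars give the percent of the transcripts of each custom probe set that were called higher in late (red) or in early (blue) erythroblasts. In set 1, 49.1% were higher in early and 15.8% in late erythroblasts, while in sets 2 to 4 the late bars (30% to 37.1%) are above the early bars (3.33% to 14%).

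MEP, the progenitors of red cells and platelets, were compared with GMP, those of granulocytes and macrophages, to see whether erythroblast transcripts already differ between the branches. Neither type can be the highest under the rule, so the sign of this comparison was not fixed by it. The rule does leave out transcripts higher in either type than in erythroblasts, which can limit the size and number of differences. Of the 535 transcripts, 66 (12.3%) were higher in MEP and 31 (5.79%) higher in GMP (3 against 2 arrays), and 438 were not called. Over all features tested, 11.1% were higher in MEP and 14.4% in GMP, and over the custom transcripts tested but not chosen 19.2% and 16.6%. The share higher in MEP was thus close to that of all features. The median difference was 0.04 for the transcripts and -0.08 for all features.

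The counts leaned on the scaling and the background correction. After normexp, 34 were higher in MEP and 89 in GMP, with quantile normalization 53 and 32, with the percentile over detected probes 98 and 20, and with spike-ins 36 and 0. Relative to the median of all features the transcripts moved from 0.12 to -0.03 with quantile normalization and after normexp. On slide 3, the only one with both cell types, the median was -0.01 and each of the 97 calls kept its sign. The arrays of that slide are among those that made the calls, so that sign is no separate evidence. Markers moved with this comparison: 8 of 10 erythroblast, 4 of 5 megakaryocyte and platelet and 4 of 5 stem cell markers were higher in MEP, and all 6 granulocyte and 3 of 6 macrophage markers were lower. Their part in the result was not tested.

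A few transcripts differed by far more than the group. TCONS_00312140 had 2.02, 2.20 and 1.58 in MEP and -3.30 and -3.37 in GMP, a difference of 5.27 ± 0.23 (adjusted p = 1.03e-09). It had 2.12 to 2.72 in CMP, -2.83 to -2.14 in LSK cells and 5.44 to 5.85 in erythroblasts, so that its levels rose in steps from LSK cells to CMP and MEP and on to erythroblasts. TCONS_00324195 followed the same order, with 1.02 to 1.60 in MEP, -2.59 and -2.68 in GMP and 4.39 to 4.79 in erythroblasts (3.97 ± 0.21, adjusted p = 4.83e-09). TCONS_00361656 had 0.26, 0.27 and -0.09 in MEP and was not above background in GMP, at least 17.9-fold lower (adjusted p = 1.22e-08). It was highest in early erythroblasts, at 3.08 and 2.47, and fell to 0.90 to 1.45 in late ones. TCONS_00068255 had -1.62 to -1.03 in MEP, -4.31 and -5.18 in GMP and 4.06 to 4.36 in late erythroblasts (3.46 ± 0.27, adjusted p = 2.02e-07). For these 4 transcripts the arrays of MEP and GMP did not overlap, and the CMP arrays overlapped those of MEP. With spike-in scaling only TCONS_00068255 of the 4 was still highest in erythroblasts, by a margin of 0.88. The margins of TCONS_00312140, TCONS_00324195 and TCONS_00361656 were then -0.34, -0.30 and -0.88, so their last step up to erythroblasts rests on the scaling.

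Of the 31 transcripts higher in GMP, 16 had a margin of at most 1, 6 between 1 and 2, 6 between 2 and 4 and 3 above 4. TCONS_00122105 had -1.72 and -1.81 in GMP and -3.92 to -3.64 in MEP (-2.05 ± 0.17, adjusted p = 3.98e-07), with granulocytes at 1.81 to 1.93 and late erythroblasts at 1.77 to 2.42, ranges that overlap. TCONS_00193564 had -0.47 and -0.39 in GMP and -2.75 to -2.27 in MEP (-2.08 ± 0.29), and TCONS_00051090 had -0.39 and -0.06 against -2.45 to -1.93 (-1.97 ± 0.37, adjusted p = 0.000977). TCONS_00269766 was not above background in MEP and at least 1.98-fold higher in GMP. The margins of these 4 were 0.19 to 0.28, so they were nearly as high in some other cell type as in erythroblasts. Both the 4 named as higher in MEP and these 4 kept their direction under the 4 other scalings.

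**Figure D5:**
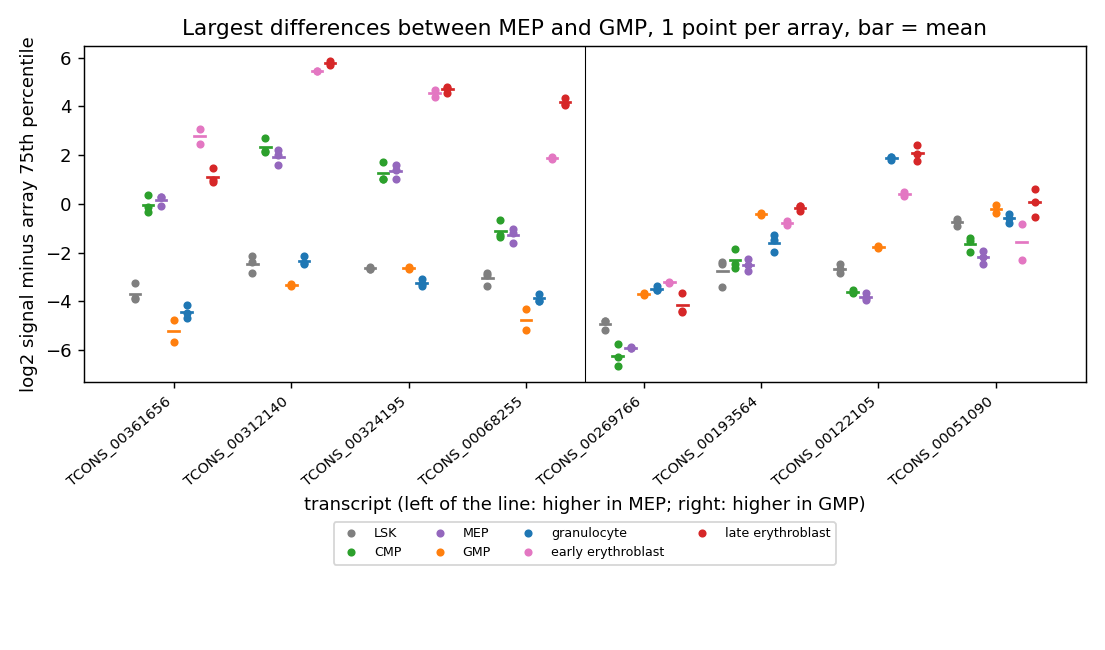
The vertical axis is the log2 signal minus the array's 75th percentile; each point is 1 array, each bar a cell type mean, and colours give the cell types. Left of the line are the 4 largest differences in favour of MEP, where CMP and MEP lie between GMP and erythroblasts; right of it are the 4 largest in favour of GMP.

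Of the 66 transcripts higher in MEP than in GMP, 41 had MEP or CMP as their highest type other than erythroblasts, which being chosen as high in MEP favours, beside 169 (31.6%) of all 535. Their erythroblast level was a median of 2.19 above MEP. Late erythroblasts were higher than early ones for 32 of them (48.5%) and lower for 16 (24.2%), beside 32.9% and 15.5% of all 535. With spike-in scaling 14 of the 66 were still highest in erythroblasts.

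MEP were next set against LSK cells, from which they descend. Of the 535 transcripts, 70 (13.1%) were higher in MEP and 22 (4.11%) higher in LSK cells (3 against 3 arrays), beside 15.8% and 11% of all features tested. This comparison shares the MEP arrays with the one above, and the rule limits it in the same way. The medians were 0.18 for the transcripts and 0.13 for all features, and on slides 3 and 4 the transcripts' median was 0.08 and 0.29. With the percentile over detected probes 43 were higher and 46 lower, and with spike-ins 22 and 1. All 5 stem cell, 5 of 6 granulocyte and 4 of 6 macrophage markers were lower in MEP, with a median of -3.35 for the granulocyte list, and 6 of 10 erythroblast markers were higher; their part in the result was not tested. TCONS_00312140, TCONS_00324195 and TCONS_00361656 were again the largest, higher in MEP by 4.38 ± 0.20, 3.97 ± 0.19 and 3.84 ± 0.28. The fourth, TCONS_00241172, had -2.43, -2.19 and -2.53 in MEP, -5.34 to -5.01 in LSK cells and 2.53 to 2.86 over both erythroblast stages (2.85 ± 0.19, adjusted p = 7.42e-08).

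Of the transcripts lower in MEP than in LSK cells, the 4 largest calls are given next, 3 of which were not highest in erythroblasts with spike-in scaling. TCONS_00257465 had -0.94 to -0.71 in LSK cells, -2.96 to -2.17 in MEP and 1.12 to 2.03 in late erythroblasts, and was not above background in GMP or granulocytes (MEP minus LSK -1.76 ± 0.26, adjusted p = 0.000153). TCONS_00253881 showed the same order, with -1.19 to -0.75, -3.40 to -2.84 and 0.23 to 1.34 (-2.07 ± 0.32, adjusted p = 0.000189). TCONS_00278383 had -2.86 to -1.87 in LSK cells, -4.12 to -3.37 in MEP and 2.19 to 2.62 in late erythroblasts, with granulocytes at -2.56 to -2.14, within the LSK range (-1.47 ± 0.28, adjusted p = 0.00106). TCONS_00051090 had -0.91 to -0.63 in LSK cells and -2.45 to -1.93 in MEP (-1.45 ± 0.33, adjusted p = 0.00449). Its early erythroblast arrays, at -2.32 and -0.81, spanned the range between MEP and LSK, and its late ones had -0.54 to 0.62. In none of the 4 did LSK and MEP arrays overlap.

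Granulocytes and GMP were compared as the other path of maturation. The rule limits this comparison as it does that of MEP with GMP. Of the 535 transcripts, 114 (21.3%) were higher and 99 (18.5%) lower in granulocytes (3 against 2 arrays), beside 22.2% and 33.8% of all features tested, and the medians were 0.02 and -0.27. After normexp 71 were higher and 113 lower, with the percentile over detected probes 168 and 70, and with spike-ins 49 and 15; with the slide as a block 59 were lower. No slide held both cell types. All probes gave the sign of the call for 192 of the 213 called. Granulocyte arrays were also higher than GMP in 8 of 10 erythroblast markers, 5 of 6 macrophage markers and 3 of 4 B cell markers, and lower in 1 erythroblast marker (Tfrc) and 1 macrophage marker (Csf1r). They differed from the 16 other arrays in sex-linked genes, chosen after their values were seen: Xist, transcribed from the inactive X chromosome, was at -0.28 to -0.15 in granulocytes and not above background elsewhere, and the Y-linked Ddx3y was at 1.49 to 2.71 elsewhere and not above background in granulocytes. The sex of the mice and the granulocyte state cannot be told apart here, and the part of other cells was not tested.

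The largest rise in granulocytes measured in both types among the transcripts named by the rule was that of TCONS_00122105, from -1.72 and -1.81 to 1.81 to 1.93 (3.65 ± 0.17, adjusted p = 4.15e-10). TCONS_00482715, TCONS_00236091 and TCONS_00482714 were not above background in GMP and at least 5.05-, 7- and 4.69-fold higher in granulocytes, with differences of 1.09, 1.32 and 0.87 after normexp. All 4 are described above for erythroblasts. The 4 largest calls in the other direction follow. TCONS_00182010 had 1.39 and 1.59 in GMP, -1.20 to -1.15 in granulocytes and 4.75 to 5.10 in erythroblasts (-2.66 ± 0.165, adjusted p = 5.99e-09). TCONS_00273710 had -0.80 and -1.18 in GMP, -4.21 to -3.91 in granulocytes and 0.94 to 1.37 in erythroblasts (-3.03 ± 0.17, adjusted p = 2.9e-09). TCONS_00327184 was not above background in granulocytes and at least 3.69-fold lower there, and TCONS_00003710 fell by 3.25 ± 0.78 (adjusted p = 0.00216) with 1 of 3 granulocyte arrays above background.

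Known noncoding RNAs on the catalogue part of the array were set beside the custom transcripts. Of 26 listed, 20 were matched and tested, and 6 met the rule, which took 40.8% of all features tested. These were Malat1 and Neat1, nuclear RNAs of speckles and paraspeckles, the imprinted RNA genes H19 and Mirg, Dleu2, a host of microRNAs, and Ftx, a neighbour of Xist. The H19 means of -4.01 in early and -3.57 in late erythroblasts lay below the detection limit, as the rule needs only 1 probe above background on each array. Late minus early erythroblast, 5 of the 20 were higher and 8 lower, beside 13.6% and 25.8% of all features tested. Malat1 was higher in late erythroblasts by 1.38 (mean levels 6.36 and 4.98) and Neat1 by 1.22 (6.47 and 5.25), while several hosts of small nucleolar RNAs, Snhg3, Snhg5, Snhg6 and Snhg12, were lower. Spike-in scaling lowers all of these differences by the same amount. It moved the median of all features in this comparison from 0.05 to -0.88.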

How the data were processed

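RNA of 19 samples was measured on single-colour Agilent arrays. The authors deposited intensity values that, per the file headers, Agilent Feature Extraction had made by subtracting background within each array and flagging each spot; the submitters' processing notes name the same program. Scaling between arrays was not part of the deposited values. The authors' series table repeats the background-subtracted intensity column and was an alternative only.

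Log2 processed signals were taken minus the 75th percentile of the 61224 non-control spots. Outlier spots were dropped, spots of a probe and then probes of a feature were averaged, and catalogue probes were named through RefSeq accessions. Of 38391 features, 26271 were tested: those with a probe above background on all arrays of some cell type. Cell type means were fitted over 19 arrays with limma 3.58.1 in R 4.3.3, with Benjamini-Hochberg adjustment over all 26271 at 0.05, and a call also needed the higher group above background on every array. A type above background on none of its arrays gives a bound, and the result is "at least N-fold". The bound is the higher of its own signal and the array's detection limit (its lowest signal above background). All folds and bounds hold for the 75th percentile scaling. Named were the 10 largest margins, the 6 (late against early) or 4 (other comparisons) largest calls in each direction, and 3 on either side of the threshold; other names were chosen after their values were seen. The transcripts and lists were chosen with earlier results of these data known. Alternatives were 3 other scalings, normexp on median signals with an offset of 50 (the files hold no mean signal), the brightest probe, outlier spots kept, 2 probes above background, other filters, slide and replicate number as blocks, fits on 2 groups, and each array left out. The fit was tested on simulated data.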

Additional observations from a re-analysis of the deposited data

How the results depend on the processing

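Scaling limits these results most, since erythroblast arrays were dim. The 535 transcripts became 88 with spike-in scaling and 87 when every scaling had to choose them; the other 7 alternatives gave counts within 1.5 times. Of the calls, spike-in scaling gave 13 higher in late than in early erythroblasts, 36 and 0 for MEP higher and lower than GMP, 22 and 1 for MEP against LSK, and 49 and 15 for granulocytes against GMP. The percentile over detected probes gave 283 and 49 (late against early), 20 lower in MEP than in GMP, and 43 and 46 (MEP against LSK). Normexp gave 50 lower in late erythroblasts, 34 and 89 (MEP against GMP) and 71 higher in granulocytes. The slide as a block gave 59 lower in granulocytes, and fits on the 2 groups alone gave 54 lower in late erythroblasts and 40 higher in MEP than in GMP. The causes were not tested.

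Leaving out 1 array gave 532 to 582 transcripts, 122 to 184 higher and 64 to 85 lower in late erythroblasts, 45 to 71 and 21 to 35 for MEP against GMP, 58 to 79 and 17 to 26 for MEP against LSK, and 93 to 114 and 84 to 103 for granulocytes against GMP.

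The replicate numbers only name samples. Arrays that share a number had deviations correlated between -0.222 and 0.164. With the replicate number as a block, 170 and 81 (late against early), 65 and 27 (MEP against GMP), 70 and 23 (MEP against LSK) and 113 and 96 (granulocytes against GMP) were called, each within 1.5 times of the fit without it.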
